A study of Mus musculus with 18 samples.

Results

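The class 3 semaphorins and their receptors were followed over 1 day in cultured mouse cells. The group was defined as 6 ligand genes (Sema3a to Sema3f), the 2 neuropilin genes Nrp1 and Nrp2, and the plexin genes Plxna1 and Plxnd1. Members were the probe sets that the platform annotation assigned to exactly 1 of these genes. All 10 genes were found, with 1 probe set each, among 19938 genes on the arrays. The cells were wild type mouse embryonic fibroblasts, connective tissue cells grown from embryos of embryonic day 13 without head and liver, and per the labels they came from 2 C57BL/6 mice, wild type for Bmal1 and bred in a line that carries a Bmal1 knockout. All groups had been given 100 nM dexamethasone for 2 h, a synthetic glucocorticoid used to bring the clocks of cultured cells into a common phase. RNA was collected 22, 26, 30, 34, 40 and 46 h later, with 3 arrays at each time and 18 in all. There was no untreated group, and the times cover 1 period of 24 h, so no repeat of a cycle could be seen.

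Class 3 semaphorins are secreted proteins, first known for steering growing axons and later for their part in vessel and heart development. Most of them bind a neuropilin, which has almost no signalling part of its own, while a plexin in the same complex passes the signal into the cell by acting on small GTPases and the cytoskeleton. Semaphorin 3E is the exception, since it binds plexin D1 directly. Fibroblasts and other mesenchymal cells are a source of these ligands for nearby nerves and vessels.

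The members were chosen by gene family, but with the values of these same arrays known: the large difference of Sema3c between 46 h and 22 h had already been seen. Levels and differences of the 10 members are therefore given as a description, without p-values. Levels are log2(intensity + 16) after quantile normalization, differences are in log2 units, and their standard errors come from a limma fit to all genes on all 18 arrays. Because of the added 16, changes of dim genes come out too small. Levels of different genes come from different probes and were not compared with each other.

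The arrays were alike in brightness, with median deposited intensities of 196 to 210. The 8 fibroblast markers had mean levels of 7.31 to 13.31, among them Dcn, which encodes the matrix proteoglycan decorin, at 13.25. Within times, 33.8% of the variance over all genes lay along 1 component, and the arrays with the largest scores on it were replicate 2 at 22 h (0.43) and replicate 2 at 40 h (-0.41). Values without the first of these arrays stand beside some of the results that lean on it, not beside all.

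Promoter windows of the reference genome were available for 7 of the 10 members. They are the 250 bases before a start listed for the gene, taken from RefSeq on build GRCm38.p6. The windows shown are those of Sema3c and Plxnd1, which were higher at 46 h than at 22 h, and that of Sema3a, which was lower. The window of Sema3c is chr5:17574566-17574815 on the plus strand, directly before the gene's record. That of Plxnd1 is chr6:115995006-115995255 on the minus strand, and that of Sema3a is chr5:13396534-13396783 on the plus strand. Those of Plxnd1 and Sema3a lie inside the gene's record, as does that of Nrp1, so they do not precede its outermost start. The window of Sema3d overlaps the first bases of its record. Sequences run 5′ to 3′ towards the start, and capitals mark matches to any of the motifs named below.
Sema3c: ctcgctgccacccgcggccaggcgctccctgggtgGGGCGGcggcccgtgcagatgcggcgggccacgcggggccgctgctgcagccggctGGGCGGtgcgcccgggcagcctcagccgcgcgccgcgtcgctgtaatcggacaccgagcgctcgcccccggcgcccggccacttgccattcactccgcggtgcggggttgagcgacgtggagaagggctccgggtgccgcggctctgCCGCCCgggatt
Plxnd1: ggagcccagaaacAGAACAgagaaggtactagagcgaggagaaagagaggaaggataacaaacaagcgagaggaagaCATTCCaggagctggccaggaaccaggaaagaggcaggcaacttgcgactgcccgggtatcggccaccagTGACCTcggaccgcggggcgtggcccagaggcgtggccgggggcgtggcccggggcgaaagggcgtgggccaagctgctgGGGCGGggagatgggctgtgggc
Sema3a: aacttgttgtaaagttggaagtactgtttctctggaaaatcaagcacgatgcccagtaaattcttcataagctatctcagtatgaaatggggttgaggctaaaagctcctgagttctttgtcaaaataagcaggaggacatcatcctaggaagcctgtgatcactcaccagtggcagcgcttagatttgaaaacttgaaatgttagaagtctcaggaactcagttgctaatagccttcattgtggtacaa

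The windows differed in base composition, with 78.4% G and C in that of Sema3c, 64.8% in that of Plxnd1 and 40.8% in that of Sema3a. Both strands were searched for 9 motifs, and a match is a match of letters, not a shown binding site. The GC box GGGCGG matched at 3 places in the window of Sema3c, 5 in that of Nrp2, 2 in that of Sema3e and 1 each in those of Nrp1 and Plxnd1. It occurs in 32.7% of 32851 promoter windows of this length. The letters AGGTCA, to which ROR and REV-ERB receptors bind, matched once in the window of Plxnd1 and once in that of Nrp1 (14% of windows). Plxnd1 also held the letters AGAACA, part of the site of the glucocorticoid receptor (16.1% of windows) and the TEAD motif GGAATG (12.6% of windows). The windows of Sema3a and Sema3d held none of the 9. The clock's E-box CACGTG (6.02% of windows) and D-box TTATGTAA (0.819%) had no match in the 7 windows. Nor had the cyclic AMP element TGACGTCA (1.55%), the E2F motif TTTCCCGC (0.895%) or the TATA box TATAAA (12.4%). These absences say only that the letters are not in these windows.

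Among the ligands, Sema3c had by far the widest range. Sema3c signals through either neuropilin and is needed for septation of the heart's outflow tract in mice. Its level was 8.34, 8.58 and 8.49 on the 3 arrays at 22 h, 8.73, 8.98 and 8.61 at 26 h, 8.79, 8.72 and 9.18 at 30 h, 9.07, 8.83 and 9.38 at 34 h, 9.63, 9.31 and 9.74 at 40 h, then 10.22, 10.09 and 10.26 at 46 h. The order of the time means was the order of the times. The arrays of 46 h lay above all others and those of 22 h below all others, while each pair of neighbours from 26 to 40 h overlapped. In deposited intensity, Sema3c read 1058 to 1209 at 46 h, against 309 to 372 at 22 h.

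The mean of Sema3c was 10.19 ± 0.09 at 46 h and 8.47 ± 0.13 at 22 h (SD, n = 3 each). The difference was 1.72 ± 0.14 (SE), with a 95% interval of 1.42 to 2.02, or 3.29-fold on the scale of intensity + 16. Whether the rise departed from an even one was not tested, and its steps covered 4 h each up to 34 h and 6 h each after it. The mean moved by 0.30 ± 0.14 from 22 to 26 h, 0.12 ± 0.14 from 26 to 30 h and 0.20 ± 0.14 from 30 to 34 h, then by 0.46 ± 0.14 from 34 to 40 h and 0.63 ± 0.14 from 40 to 46 h. Per hour, these steps were 0.076, 0.030, 0.050, 0.077 and 0.105 log2. By 34 h the gene had covered 36.3% of its difference between the end points, and by 40 h 63.2%. Of the variance of Sema3c over the 18 arrays, the 6 time means held 92.2%, a straight line in time 89.3% and a 24 h cosine 19.7%. No fall back towards the 22 h level was seen within the times sampled.

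**Figure D1:**
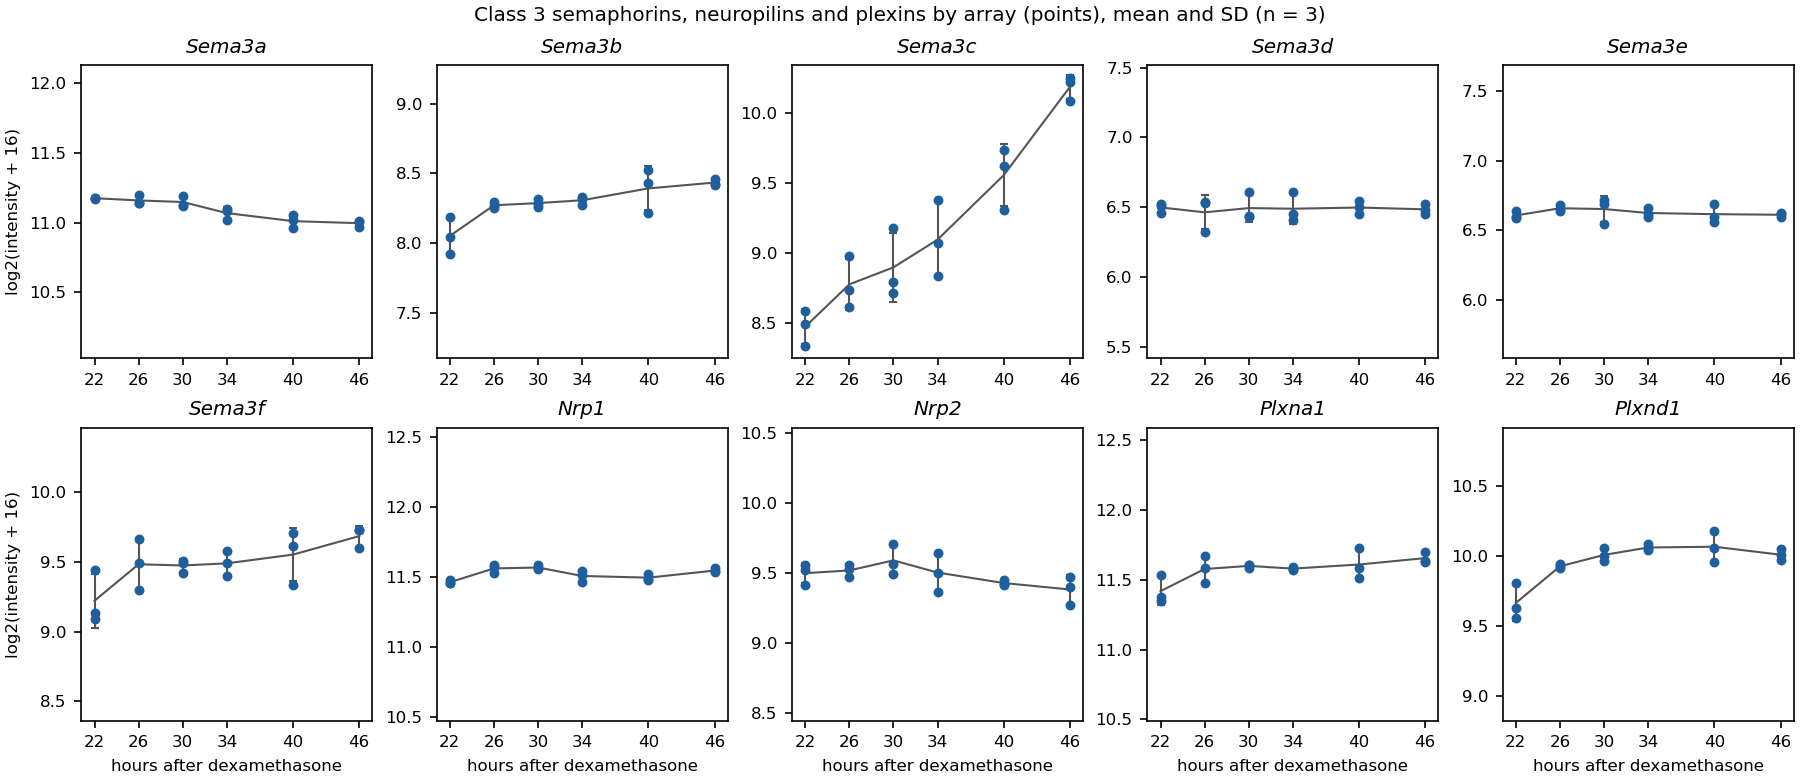
Level of each of the 10 genes as log2(intensity + 16) against hours after dexamethasone, with 1 point per array, the line through the time means and bars of 1 SD (n = 3). Every panel spans the same height in log2 units; Sema3c climbs from first to last time, Sema3b, Sema3f, Plxna1 and Plxnd1 are lowest at 22 h, and Sema3d and Sema3e stay level.

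Sema3b and Sema3f showed smaller differences with another time course. Both encode ligands studied as tumour suppressors in human lung cancer, and semaphorin 3F acts mainly through neuropilin 2. Sema3b read 7.93, 8.18 and 8.05 at 22 h, 8.27, 8.30 and 8.25 at 26 h, 8.26, 8.32 and 8.28 at 30 h, 8.32, 8.27 and 8.33 at 34 h, 8.43, 8.22 and 8.52 at 40 h, then 8.42, 8.46 and 8.43 at 46 h. The 22 h arrays lay below all others, and from 26 h on every neighbouring pair in the order of means overlapped. The mean was 8.43 ± 0.02 at 46 h and 8.05 ± 0.13 at 22 h (SD, n = 3 each), a difference of 0.38 ± 0.07 (SE), of which 57.4% was present at 26 h.

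Sema3f read 9.09, 9.44 and 9.13 at 22 h, 9.49, 9.30 and 9.66 at 26 h, 9.50, 9.50 and 9.42 at 30 h, 9.49, 9.40 and 9.58 at 34 h, 9.70, 9.34 and 9.62 at 40 h, then 9.60, 9.73 and 9.73 at 46 h. The 46 h arrays lay above those of 22 h, but every neighbouring pair in the order of means overlapped, as replicate 2 at 22 h was high and replicate 2 at 40 h low. The difference of 46 h from 22 h was 0.46 ± 0.10, with 56.5% of it present at 26 h. It was 0.57 without replicate 2 at 22 h and 0.40 without replicate 1 at 22 h.

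Sema3a ran the other way. It encodes the founding member of the class, a repellent of axons that acts through neuropilin 1 and A-type plexins. Its arrays read 11.18, 11.17 and 11.17 at 22 h, 11.20, 11.14 and 11.14 at 26 h, 11.12, 11.13 and 11.19 at 30 h, 11.02, 11.08 and 11.10 at 34 h, 11.02, 11.05 and 10.96 at 40 h, then 10.97, 11.00 and 11.01 at 46 h. The times fell into an earlier set of 22 to 30 h, whose arrays all lay above those of the later set of 34 to 46 h, with overlap between neighbours inside each set. The difference was small, -0.18 ± 0.04 between 46 h and 22 h, or -0.28 with median centring of each array in place of quantile normalization, and the largest step was that from 30 to 34 h, at -0.08 ± 0.04.

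Sema3d and Sema3e showed no difference between 46 h and 22 h beyond the spread of the arrays. Sema3d is needed for the patterning of the pulmonary veins in mice, and semaphorin 3E restrains vessel growth through plexin D1. Single arrays read 6.32 to 6.61 for Sema3d and 6.55 to 6.72 for Sema3e. The time means of Sema3d spanned 0.04 log2 and those of Sema3e 0.05, with every neighbouring pair overlapping. The difference was -0.01 for Sema3d, with a 95% interval of -0.16 to 0.13, and 0.00 for Sema3e (-0.10 to 0.11). The table carries no detection calls, so whether these dim probe sets measured transcript was not tested.

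Among the receptors, the plexin genes were higher at the later times. Plexin D1 is the receptor of semaphorin 3E and, in complex with neuropilins, of semaphorin 3C, and it is best known from endothelial cells. Plxnd1 read 9.55, 9.81 and 9.63 at 22 h, 9.91, 9.93 and 9.94 at 26 h, 10.00, 10.06 and 9.96 at 30 h, 10.05, 10.04 and 10.09 at 34 h, 10.18, 9.96 and 10.06 at 40 h, then 9.97, 10.05 and 10.01 at 46 h. The arrays of 22 h lay below all others, those of 26 h below all later ones, and the 4 times from 30 h on overlapped as neighbours. The highest mean came at 40 h, and 75.9% of the difference between 46 h and 22 h, 0.35 ± 0.06, was present at 26 h. At 30 h Plxnd1 had covered 99.6% of its difference and Sema3c 24.8% of its own.

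Plxna1 encodes plexin A1, the signalling partner of neuropilin 1 for semaphorin 3A. It read 11.35, 11.53 and 11.37 at 22 h, 11.58, 11.48 and 11.67 at 26 h, 11.59, 11.61 and 11.60 at 30 h, 11.57, 11.58 and 11.59 at 34 h, 11.73, 11.51 and 11.58 at 40 h, then 11.64, 11.70 and 11.63 at 46 h. Neighbouring times in the order of means all overlapped, although the arrays of 46 h lay above those of 22 h. The difference between those times was 0.24 ± 0.06. It was 0.29 without replicate 2 at 22 h, 0.20 without replicate 1 at 22 h and 0.15 with median centring.

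The neuropilin genes moved little. Neuropilin 1 is shared between semaphorin 3A and VEGF-A, and neuropilin 2 between semaphorin 3F and VEGF-C. Nrp1 read 11.54, 11.53 and 11.56 at 46 h, against 11.48, 11.45 and 11.46 at 22 h, and its time means spanned 0.11 log2, from the low at 22 h to the high at 30 h. Its difference of 46 h from 22 h was 0.08 ± 0.04, with a 95% interval that takes in 0 (-0.0024 to 0.17), and 0.01 with median centring. Nrp2 was highest at 30 h, at 9.57, 9.71 and 9.50, and lowest at 46 h, at 9.27, 9.40 and 9.47. Its difference was -0.12 ± 0.07, with an interval of -0.27 to 0.04, and it was -0.06 without replicate 1 at 46 h and -0.23 with median centring of the arrays in place of quantile normalization. All neighbouring times of Nrp2 overlapped.

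Counted by the limma calls that apply to all genes, with a Benjamini-Hochberg adjusted p under 0.05, 5 of the 10 members (Sema3b, Sema3c, Sema3f, Plxna1 and Plxnd1) were higher at 46 h than at 22 h, beside 11.5% of all genes. Sema3a was the 1 member called lower, beside 9.73%, and 21.2% of all genes were called in either direction. The call for Plxna1 was lost without replicate 1 or 3 at 22 h or without replicate 2 at 46 h. The F test over the 6 times called 4 members (Sema3a, Sema3b, Sema3c and Plxnd1), beside 19.8% of genes. The 24 h cosine called 0, beside 0.828%, and 2 members had an unadjusted p under 0.05 in that test by limma, beside 4248 of all 19938 genes. Since the members were gathered with these contrasts known, nothing is read from these counts. The arrays of 46 h lay above all those of 22 h in 6 members, the 5 above and Nrp1, beside 21.3% of genes, and below them in Sema3a, beside 15.3%. The median difference was 0.16 over the 10 members and 0.03 over all genes.

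**Figure D2:**
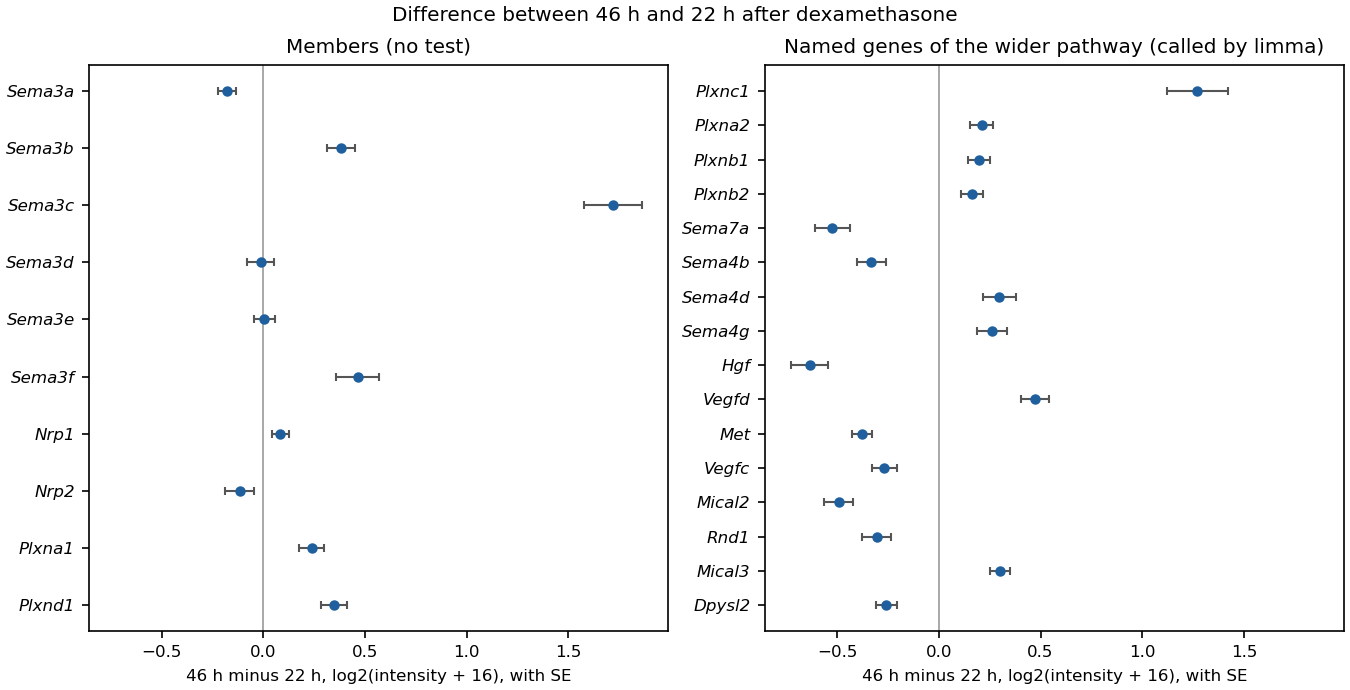
Difference of 46 h from 22 h in log2(intensity + 16) with its standard error (limma, 18 arrays), for the 10 members on the left and for the named genes of the wider pathway on the right. Sema3c lies farthest from 0 at 1.72 and Plxnc1 next at 1.27, while Sema3d and Sema3e sit on 0.

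Some members lie side by side on a chromosome. By the RefSeq table of GRCm38.p6, used here for which genes neighbour each other, Sema3d, Sema3a, Sema3e and Sema3c follow each other on chromosome 5. Sema3d and Sema3a have no protein-coding gene between them, and 15 such genes, Hgf among them, lie between Sema3e and Sema3c. This one stretch thus held the member with the largest positive difference, the member that was lower at 46 h and both members that stayed level. Sema3b and Sema3f stand on chromosome 9 with 3 genes between them, Gnai2, Slc38a3 and Gnat1, of which Slc38a3 rose by limma's test, a call lost without replicate 3 at 22 h (adjusted p = 0.0593).

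The wider pathway was then examined through 5 gene lists that were drawn up with results of this series known. Here limma's tests are given for single genes, adjusted over all 19938 genes. Because of how the lists were drawn up, nothing is read from the counts of calls per list. Of 64 genes on these lists 63 were measured. The contrast of 46 h with 22 h called 11 higher and 10 lower, with a median difference of 0.02, beside 11.5% and 9.73% of all genes and a median of 0.03. The F test called 13 and the cosine 1, Dpysl2, beside 19.8% and 0.828% of all genes.

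The other plexins and Sema3g formed a list of 8 genes, of which 4 rose and 0 fell by limma. In that contrast 6 had an unadjusted p under 0.05, beside 6676 of all 19938 genes. Plxnc1 encodes plexin C1, a receptor for the membrane-anchored semaphorin 7A. Its arrays read 8.33, 8.05 and 8.25 at 46 h, against 6.76, 7.32 and 6.74 at 22 h, and it rose by 1.27 ± 0.15 (SE, adjusted p = 9.85e-06, limma). The groups did not overlap. Replicate 2 at 22 h was the highest of its time, and without it the difference was 1.46. The mean level of Plxnc1 over all arrays, 7.60, lay below the median level of all genes. Smaller rises were those of Plxna2 (0.21 ± 0.06), the partner of semaphorin 3C in neural crest cells, Plxnb1 (0.20 ± 0.05), a receptor of semaphorin 4D, and Plxnb2 (0.16 ± 0.05). Of 28 alternatives, the call for Plxnb2 was lost in 14, with an adjusted p by limma of up to 0.404, which came with median centring. The call for Plxnb1 was lost in 4, which left out replicate 1 or 3 at 22 h or replicate 2 or 3 at 46 h. That for Plxna2 was lost in 3, with median centring and without replicate 1 at 22 h or replicate 3 at 46 h.

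The time means of Plxnc1 were 6.94, 7.40, 7.49, 7.65, 7.90 and 8.21 from 22 to 46 h, in the order of the times as for Sema3c. Its largest step between means was the first, over the 4 h from 22 to 26 h, whereas that of Sema3c was the last, over 6 h. The SD of Plxnc1 at 22 h was 0.33, and whether its course differed from that of Sema3c was not tested. Over arrays, its values correlated with those of Sema3c at r = 0.94 over the 18 arrays and r = 0.97 over the 6 time means. After each time's mean was taken off, r was 0.76. These correlations are descriptions over arrays that share their times, and this pair was picked after its values had been seen.

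Among 13 semaphorins of the other classes, 2 rose and 3 fell. Semaphorin 7A, which is tethered to the membrane, binds plexin C1 and integrins. Sema7a read 8.95, 8.95 and 8.86 at 46 h, against 9.52, 9.30 and 9.51 at 22 h, and fell by 0.52 ± 0.09 (SE, adjusted p = 0.000304, limma), opposite to the gene of its receptor. Sema4b fell by 0.33 ± 0.07, and Sema6a by 0.19 ± 0.05. Sema4d, the plexin B1 ligand also known as CD100, rose by 0.30 ± 0.08, and Sema4g by 0.26 ± 0.07. The calls for Sema4d and Sema4g were lost without replicate 1 at 22 h, with adjusted p of 0.0857 and 0.0932. The call for Sema6a was lost without replicate 1 (adjusted p = 0.0679) or 3 (0.0612) at 22 h, with the values as deposited (0.131) and with only the arrays of 22 h and 46 h (0.0611). That of Sema4d was also lost without replicate 2 at 46 h (0.0519), and that of Sema4g also without replicate 3 at 22 h (0.0868), replicate 1 at 46 h (0.0542) or replicate 2 at 46 h (0.0905), and with only the arrays of 22 h and 46 h (0.057).

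Neuropilins and plexins share partners with growth factor receptors, and of 14 genes on that list 2 rose and 3 fell. Hgf, the hepatocyte growth factor, read 9.61, 9.64 and 9.63 at 46 h, against 10.42, 10.02 and 10.33 at 22 h, and fell by 0.63 ± 0.09 (SE, adjusted p = 7.27e-05, limma). Without replicate 2 at 22 h the difference of Hgf was -0.75. Met, which encodes its receptor and can pair with B-type plexins, fell by 0.38 ± 0.05 (adjusted p = 2.47e-05). Both genes of this ligand and receptor pair thus fell. Vegfd, a lymphatic growth factor, rose by 0.47 ± 0.07, whereas Vegfc, the other lymphatic factor and a ligand of the neuropilin 2 complex, fell by 0.27 ± 0.06. The call for Vegfc was lost with the array values as deposited (adjusted p = 0.0682). Vegfa, which binds neuropilin 1, rose by 0.18 ± 0.06, a call lost in 8 of 28 alternatives. Among them were those without replicate 1 or 3 at 22 h or any 1 array of 46 h, with an adjusted p by limma of up to 0.122. The highest adjusted p, 0.371, came with median centring, where the difference was 0.07.

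The 4 proprotein convertases, enzymes of a family that cuts class 3 semaphorins, gave 0 calls in the contrast by limma. Of them 1 had an unadjusted p under 0.05, beside 6676 of all 19938 genes. Furin, the best known of them, differed by 0.13 ± 0.06.

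Of 24 measured genes on the list of intracellular effectors, 3 rose and 4 fell. The MICAL proteins are oxidases that take actin filaments apart downstream of plexins. Mical2 fell by 0.49 ± 0.07 and Mical3 rose by 0.30 ± 0.05. Rnd1, a GTPase that binds the cytoplasmic part of plexins, fell by 0.31 ± 0.07. Dpysl2, which encodes the collapsin response mediator CRMP2, fell by 0.26 ± 0.05, and its cosine amplitude passed with an adjusted p of 0.0374 by limma. That call was lost in at least 10 of the 18 fits that left out 1 array, those in which the cosine called no pathway gene. Cdk5, a kinase that primes CRMP2, rose by 0.19 ± 0.05, Mical1 rose by 0.21 ± 0.06, though its arrays of the 2 times overlapped, and Abl2 fell by 0.13 ± 0.05. The call for Abl2 was lost in 15 of 28 alternatives, among them those without replicate 1 or 3 at 22 h or any 1 array of 46 h, with an adjusted p of up to 0.174. The call for Mical1 was lost in 6, without replicate 1 or 3 at 22 h or replicate 1 or 2 at 46 h, with median centring and with only the arrays of 22 h and 46 h, and that for Cdk5 in the last 2 of these. The genes of the small GTPases themselves, Rac1 and Rhoa, differed by -0.04 ± 0.05 and 0.00 ± 0.07.

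Markers of other cells and of cell division were set beside these differences, since plexin D1 and the neuropilins are also endothelial genes. Of 6 endothelial markers 1, Cldn5, rose by 0.21 ± 0.07, and the summed intensity of the list was 644 to 694 at 46 h, against 615 to 663 at 22 h. Of 4 neural and glial markers 1, Elavl3, rose by 0.18 ± 0.05, with sums of 829 to 941 at 46 h and 814 to 879 at 22 h. Macrophage markers gave 0 calls of 4 by limma, with 0 at an unadjusted p under 0.05, and sums of 528 at 46 h on all 3 arrays and 496 to 564 at 22 h. Of 4 epithelial markers 1, Krt8, fell by 0.28 ± 0.08, with sums of 533 to 552 at 46 h and 563 to 576 at 22 h. Of 6 muscle markers 1, Acta2, rose by 0.30 ± 0.06, with sums of 11604 to 12853 at 46 h and 9808 to 10811 at 22 h.

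Single arrays decided some of these marker calls. That of Cldn5 was lost without replicate 1 or 3 at 22 h or replicate 2 or 3 at 46 h, as was that of Krt8, and that of Elavl3 without replicate 1 at 22 h or replicate 2 at 46 h. Larger differences lay elsewhere. Of 8 fibroblast markers 5 rose (Col1a1, Col1a2, Col3a1, Pdgfra and Lum) and 0 fell, with sums of 49486 to 50997 at 46 h, against 41047 to 44591 at 22 h. All 7 measured G2/M genes fell, with sums of 5668 to 6567 at 46 h, against 13547 to 16043 at 22 h. Of 10 core clock genes 4 rose (Arntl, Clock, Per1 and Cry1) and 5 fell (Per2, Per3, Cry2, Nr1d2 and Dbp), with sums of 6432 to 6794 at 46 h and 7564 to 7971 at 22 h. The call of Cry2 was lost in 20 of 27 alternatives, most of which left out 1 array, that of Per1 in 5 and that of Clock in 3. None of the markers was at 0 on the arrays, but without detection calls this does not show that these cell types were present. Mean levels were 6.45 to 7.91 for the endothelial, 6.77 to 8.29 for the neural and glial, 6.31 to 8.07 for the macrophage and 6.92 to 7.72 for the epithelial markers. Whether such dim probe sets measured transcript was not tested. The part of these cell-type and division genes in the values of the semaphorin genes was not tested. In such bulk RNA, a change in the share of cells that use a gene and a change of RNA per cell cannot be told apart.

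The genes whose course was most like that of Sema3c were looked up among the 3957 genes called by the F test, by Pearson correlation over the 18 arrays. They were Lrp4 (r = 0.98), a receptor of the LDL receptor family, Plau (0.98), the urokinase protease, Col11a1 (0.98), a fibrillar collagen chain, Ctsh (0.97), a lysosomal protease, and Sparc (0.97), a collagen-binding matrix protein. Each was lowest at 22 h and highest at 46 h. Their differences of 46 h from 22 h, from 0.40 for Ctsh to 1.02 for Plau, were smaller than the 1.72 of Sema3c. This set kept at least 4 of its 5 genes when any 1 array was left out and 3 with median centring.

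**Figure D3:**
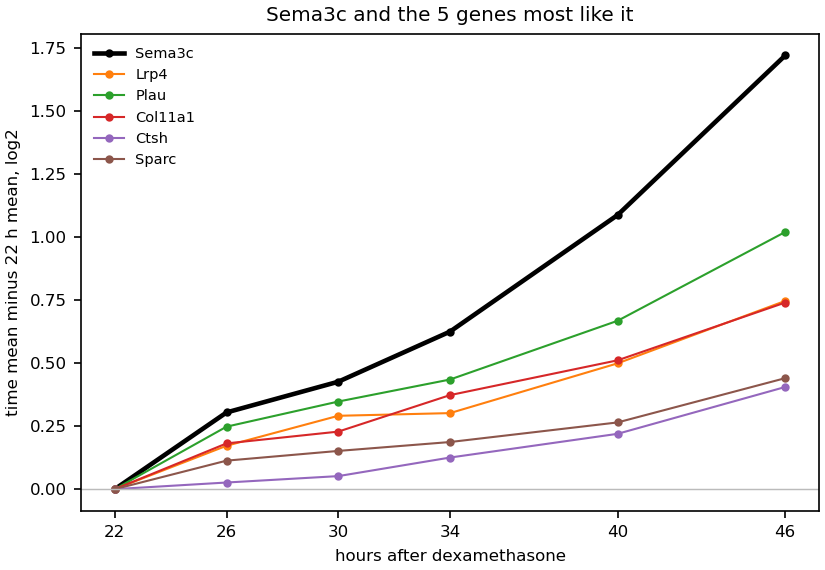
Time mean minus the 22 h mean in log2 units against hours after dexamethasone, for Sema3c (black) and the 5 genes most correlated with it over 18 arrays. All 6 lines end at their highest point at 46 h, that of Sema3c at 1.72.

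The members also differed in how they varied between arrays of 1 time, which is separate from the time means. Sema3f and Plxna1 deviated together from their time means (r = 0.90 over 18 arrays), as did Plxna1 and Plxnd1 (0.82), Sema3f and Plxnd1 (0.80) and Sema3b and Plxnd1 (0.77). These 4 genes also followed the component described above, with r of 0.81 for Sema3f, 0.81 for Plxna1, 0.81 for Plxnd1 and 0.63 for Sema3b. Over the 18 arrays Sema3c did not follow it (r = -0.03), nor did Sema3a (-0.10), Sema3d (0.06) or Nrp2 (0.06). Nrp1 (-0.41) and Sema3e (-0.39) ran weakly against it. On replicate 2 at 22 h and replicate 2 at 40 h, however, Sema3c deviated the same way as those 4 genes, by 0.11 and -0.25. Its deviations also went with those of Sema3b (r = 0.57). Arrays share their RNA preparation and hybridization for all genes, so these values are descriptions.

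**Figure D4:**
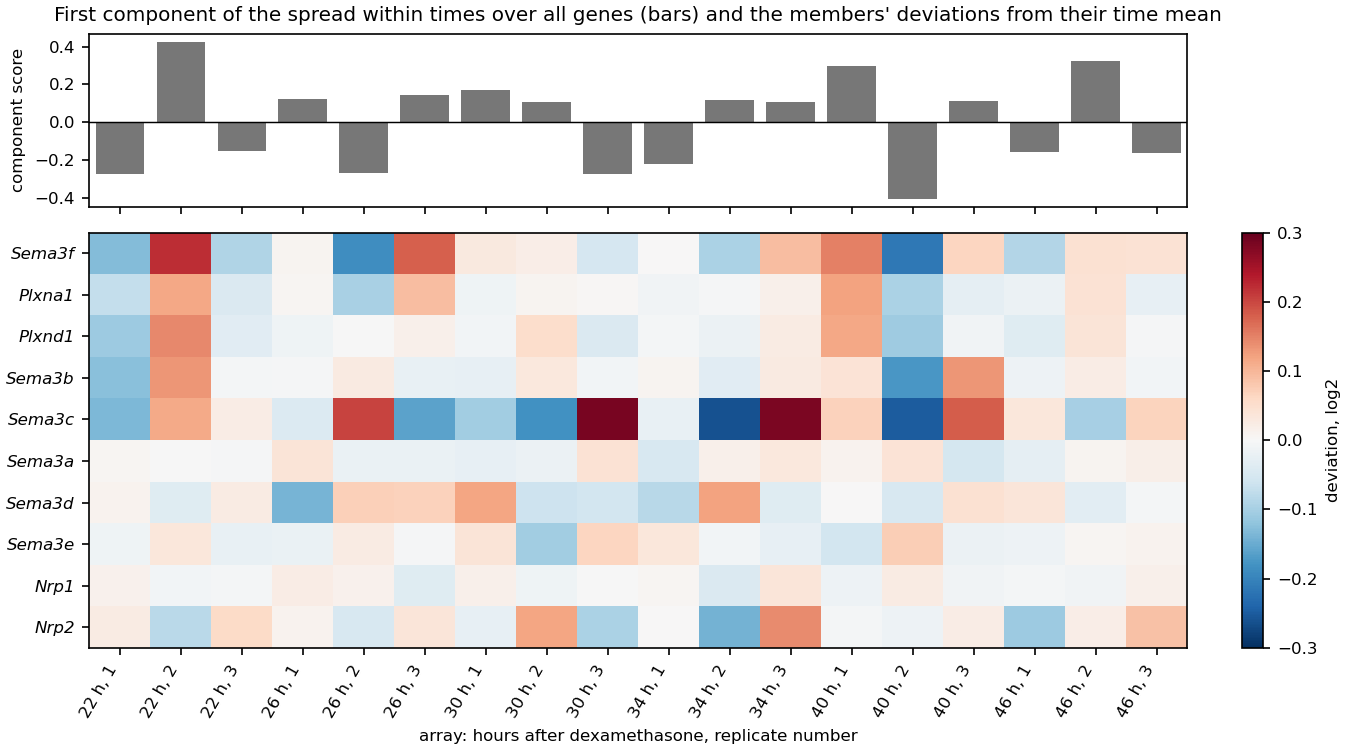
Upper panel, score of each array on the first component of the spread within times over all genes; lower panel, deviation of each gene from its time mean in log2 units, 1 column per array. On replicate 2 at 22 h (score 0.43), Sema3f, Plxna1, Plxnd1, Sema3b and Sema3c are high. On replicate 2 at 40 h (score -0.41) these genes are low. The deviations of Sema3c are 0.11 and -0.25 on these arrays, but over all 18 arrays they do not follow the score (r = -0.03).

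The step from 22 to 26 h was 0.30 ± 0.14 for Sema3c, which did not follow this component. Among the genes that did, it was 0.22 ± 0.07 for Sema3b, 0.26 ± 0.10 for Sema3f, 0.16 ± 0.06 for Plxna1 and 0.26 ± 0.06 for Plxnd1, and it was -0.04 to 0.10 for Sema3a, Sema3d, Sema3e, Nrp1 and Nrp2. Scores of the component sum to 0 within each time, so it cannot show whether 22 h differed from 26 h along it. Its part in the step was not tested. Without replicate 2 at 22 h, the differences of 46 h from 22 h were 0.45 for Sema3b, 0.42 for Plxnd1 and 1.78 for Sema3c. Leaving out replicate 1 at 22 h instead made them smaller, at 0.32 for Sema3b, 0.29 for Plxnd1 and 1.65 for Sema3c.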

How the data were processed

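Expression was measured with Affymetrix expression arrays in 18 samples, 3 at each of 6 times, and groups were taken from the sample titles. Each deposited column holds linear intensity, with 1 value for a probe set. Per the submitters' processing notes, the tools were Affymetrix Expression Console 1.1 and PLIER 2.0; their settings and the genome build are not stated there. Replicates are called biological in the labels without further detail, so p-values cover the spread between these arrays, which may be technical.

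Probe sets with exactly 1 gene symbol in the platform annotation were kept (21789 of 35556), and the brightest stood for a gene, leaving 19938 genes. Intensities were taken as log2(value + 16) and quantile normalized, since array quartiles differed by up to 0.154 log2. Group means, an F test, the 46 h contrast and a 24 h cosine were fitted with limma 3.58.1 in R 4.3.3, with Benjamini-Hochberg adjustment over all genes at 0.05. The fits were tested on simulated data. Figures were drawn with matplotlib 3.10.9.

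The members and gene lists were chosen with earlier results of these data known. All members were named, with the 5 genes most correlated with Sema3c; the like set for Sema3a is not reported here. Of each pathway list, up to 4 called genes with the largest differences between 46 h and 22 h were named, with up to 2 others called by the F test alone; Vegfa, Sema6a, Cdk5, Mical1, Abl2, Furin, Rac1 and Rhoa were added after their values were seen. Of marker lists, the called genes of other cell types and Dcn were named. Alternatives covered normalization, the added constant, a filter on dim genes, the probe set used, array weights, a replicate block, the variance model, the arrays fitted, a linear term, and each array left out.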

Additional observations from a re-analysis of the deposited data

How the results depend on the processing

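The members' differences, the counts over the pathway lists and the difference of each called gene on the lists were recomputed under up to 29 alternatives, 18 of which left out 1 array. Among these called genes and the called members no difference changed its sign. Sema3d, Sema3e and Rhoa, near 0 and not called, did so under some alternatives. Rhoa stood at -0.041 with the values as deposited, -0.11 with median centring, -0.020 with array weights and -0.056 to 0.039 without single arrays. The 5 members counted as higher at 46 h and Sema3a, counted as lower, kept that call in every alternative that tested them, apart from the exceptions given for Plxna1. Since these refits use the values with which the members were gathered, nothing is read from the kept calls. With only genes above the median level, which left out Sema3d and Sema3e, the median difference of the members was 0.29 instead of 0.16, and their median range 0.31 instead of 0.22. With median centring the median difference was 0.09. Without single arrays these medians ran from 0.15 to 0.19 and from 0.20 to 0.25.

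Of the pathway genes, 21 were called between 46 h and 22 h. That count was 33 with array weights, and between 12 and 24 with 1 array left out, lowest when that was replicate 1 and highest when it was replicate 2 of 22 h. The 11 higher genes became 7 with median centring, 19 with array weights, 7 with only the arrays of 22 h and 46 h, and 4 (leaving out replicate 1 of 22 h) to 13 without single arrays. They were 7 without replicate 3 at 22 h, 5 without replicate 2 at 46 h, and 7 without replicate 1 or replicate 3 at 46 h. The 10 lower genes ranged from 8 to 11 without single arrays. The F test's 13 became 22 with the values as deposited and 37 with array weights, and 10 to 17 without single arrays. The single cosine call became 3 with median centring, 2 with array weights, 0 with a linear term in time, and 0 to 2 without single arrays. For these moves the cause was not tested.

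Scaling set the balance over all genes: 54.2% of the calls between 46 h and 22 h were higher, 63.9% with the values as deposited and 36.1% with median centring. Median centring gave Plxnd1 a difference of 0.24. With it Nrp2 was called lower, and with array weights Nrp1 was called higher and Nrp2 lower. The labels do not say whether replicate numbers pair the arrays. Same-numbered arrays deviated together (r over 0.1) in 15 of 45 pairs, with r from -0.56 to 0.49. Of 18 arrays, 3 correlated best with their own number. These values cannot show whether same-numbered arrays shared a source. With the replicate block the cosine call became 0, and the counts over all genes were 3838 instead of 4234 between 46 h and 22 h. That block also took the calls, by limma, of Plxnb2 (adjusted p = 0.0626), Abl2 (0.0595), Cldn5 (0.0563) and Cry2 (0.0701), and of no other called gene on the lists. Dim probe sets such as Sema3d and Sema3e carry no detection call, nor do those of called genes below the median level, such as Plxnc1.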
